A study of Mus musculus musculus x Mus musculus castaneus with 12 samples.

Results

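The H19-Igf2 and Kcnq1 domains are neighbouring clusters of imprinted genes at the distal end of mouse chromosome 7, and 10 of their genes are described here out of 24346 genes in the deposited tables. The 10 genes were taken by symbol, from a list of members that was chosen with earlier results of these data known. They were H19 and Igf2 of the H19-Igf2 domain, and Ascl2, Cd81, Tssc4, Kcnq1, Kcnq1ot1, Cdkn1c, Slc22a18 and Phlda2 of the Kcnq1 domain. On GRCm38 (mm10) they lay between the start of H19 at 142575529 and the end of Phlda2 at 143503150 on chromosome 7.

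RNA-seq was carried out on 12 cultures of mouse embryonic stem (ES) cells derived from crosses between C57BL/6J (BL6) and Mus castaneus (cast), so that transcripts of the maternal and paternal alleles could be told apart by single nucleotide polymorphisms (SNPs). The male BC line, with a BL6 mother and a cast father, was represented by 2 wild-type (wt) replicates and by the Kdm6a knockout (KO) clones ΔE1 and ΔE3, which carry an exonic deletion, and ΔP4, which carries a promoter deletion. The male CB line, from the reciprocal cross with a cast mother, was represented by 2 wt replicates, by the exonic clones ΔE2.5 and ΔE2.7 and by the promoter clone ΔP2.1. A female BC line was represented by 2 wt replicates and no KO clone. Kdm6a is an X-linked gene that encodes a demethylase of lysine 27 of histone H3, and the question was how its loss affected the expression of each parental allele. Each KO library was a clone of its own, except that ΔE1 and ΔE3 arose from the same editing event, and the CB wt line carried an actin-GFP transgene. The paper reports that ΔE1 and ΔE3 also carry an off-target deletion on the X chromosome. It removes Map3k15, Pdha1 and part of Sh3kbp1. All lines were grown with leukaemia inhibitory factor and serum on a layer of inactivated mouse embryonic fibroblasts, from which the ES cells were separated on gelatin before use.

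The guide RNAs are given because they made the Kdm6a deletion of every KO clone compared here. They are printed 5′ to 3′ with the protospacer in lower case and the adjacent motif (PAM) in capitals.
ΔE Left: gaaacctcacgaacccgaaaAGG
ΔE Right: tagcattatctgcataccagAGG
ΔP Left: ggacactgcatgtttgatggAGG
ΔP Right: agctacatactccaaaggagAGG
The protospacers of the ΔE pair lay inside Kdm6a at chrX:18163390-18163409 and chrX:18208733-18208752 on mm10. The ΔP pair lay upstream of the gene at chrX:18160528-18160547 and inside it at chrX:18164295-18164314. No guide lay on chromosome 7.

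In the H19-Igf2 domain, a control region that is methylated on the paternal chromosome directs shared enhancers to H19, a non-coding RNA, on the maternal chromosome and to Igf2, a fetal growth factor, on the paternal chromosome. In the Kcnq1 domain, the promoter of the long non-coding RNA Kcnq1ot1 lies inside the potassium channel gene Kcnq1 and is methylated on the maternal chromosome. Kcnq1ot1 is therefore transcribed from the paternal chromosome, where it silences genes such as Cdkn1c, an inhibitor of cell division, and Phlda2, a brake on placental growth.

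Levels are given in TPM, a measure of transcripts per library that is corrected for gene length and depth, computed from the fragments assigned to either genome and the length of the longest transcript of each gene. The maternal share is the percentage of the fragments with a SNP that came from the maternal genome, with its Wilson 95% interval, which covers counting error only. Kdm6a itself stood at 49.9 to 51.8 TPM in the male wt cultures, at 65.02 and 65.07 TPM in the female wt cultures and at 0.0365 to 13.5 TPM in the KO clones. Libraries held 49975599 to 89070402 diploid fragments, of which 17.8 to 18.2% carried a SNP. In 34 other genes of distal chromosome 7 the median BL6 share was between 49.5 and 52.7% in every culture, so the maternal shares below were not rescaled. On the X chromosome, which males inherit from the mother, 98.8 to 99.3% of SNP fragments were maternal in the male BC cultures and 88.5 to 90.1% in the CB cultures. The median BL6 share over 315 X-linked genes, taken gene by gene, was 0% in every CB culture. The part of the difference between the crosses in the CB shares was not tested. The markers of ES cells were present above 1 TPM in all cultures.

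Of the 10 genes, 8 exceeded 1 TPM in at least 1 culture, and Kcnq1 and Kcnq1ot1 did not. In BC wt cells the mean level fell from Phlda2 at 388 ± 38.3 TPM (SD, n = 2), through Cd81 at 258 ± 19.9, H19 at 161 ± 10.7, Cdkn1c at 75.5 ± 3.87, Tssc4 at 52.3 ± 3.59, Ascl2 at 19.01 ± 0.590 and Igf2 at 10.5 ± 2.42, to Slc22a18 at 2.98 ± 0.407 TPM. With the longest transcript as the length, the replicates of neighbouring genes in this order did not overlap. In CB wt cells the order was Cd81 at 452 ± 5.60 TPM, H19 at 263 ± 10.5, Phlda2 at 154 ± 5.63, Cdkn1c at 102 ± 3.62, Tssc4 at 52.5 ± 0.619, Igf2 at 48.9 ± 1.63, Ascl2 at 19.1 ± 0.577 and Slc22a18 at 2.38 ± 0.510 TPM. Phlda2 thus moved from the highest place to the third, and Igf2 passed Ascl2. Other places depended on the length used. With all exonic bases of a gene as its length, H19 at 233 and 213 TPM overlapped Cd81 at 216 and 194 TPM in BC wt. In CB wt they overlapped as well, at 368 and 348 TPM for H19 and 355 and 349 TPM for Cd81. Igf2 at 60.4 and 57.6 TPM then exceeded Tssc4 at 57.3 and 56.3 TPM in CB wt.

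H19 varied most. Its highest level, in ΔE2.7, was 199 times its lowest, in ΔE3, while the median of this ratio over the 11917 genes above 1 TPM in every culture was 2.01 and 0.0252% of them had a ratio as large. The ratio was 18.0 for Igf2, 6.97 for Cdkn1c, 5.02 for Phlda2, 3.70 for Slc22a18, 2.63 for Ascl2, 2.07 for Cd81 and 1.38 for Tssc4. Tssc4, a splicing factor gene next to Cd81, was thus among the steadier genes, since 91.2% of genes had a ratio as large or larger. These are bulk cultures, in which fewer cells of a type and less RNA per cell cannot be told apart.

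**Figure D1:**
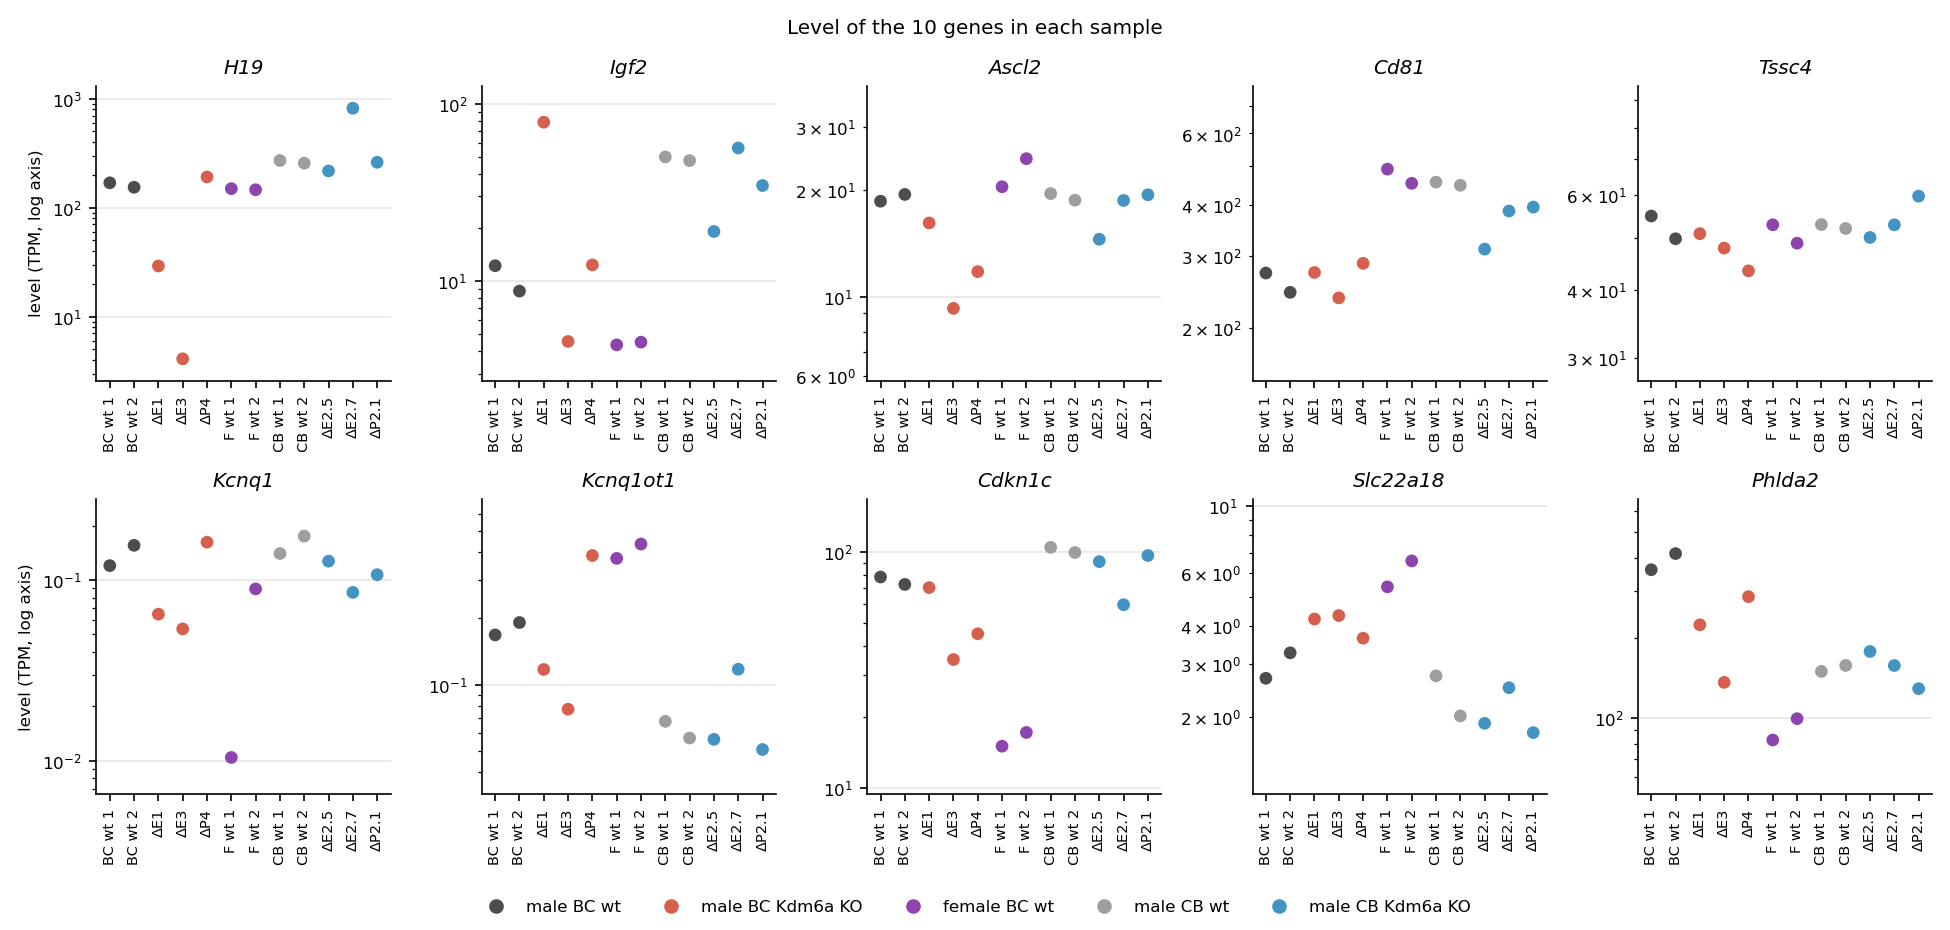
Level of each of the 10 genes in the 12 cultures, in TPM on a log axis that is scaled separately for each gene, with 1 point for each culture and no error bar because each point is 1 library. H19 ranges from 4.10 TPM in ΔE3 to 817 TPM in ΔE2.7, and Cdkn1c and Phlda2 are lowest in the female line.

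The reciprocal crosses separate a bias towards a parent, which changes strain between BC and CB, from a bias towards a strain, which does not. The test was an edgeR quasi-likelihood test of the maternal to paternal ratio over the 4 male wt libraries, and a gene was called at a Benjamini-Hochberg adjusted p (FDR) under 0.05 and a ratio of at least 1.5-fold. Of the 10 genes, 8 had the 20 SNP fragments required in every library, and 5 were called, beside 11.6% of all 10465 genes tested. H19, Cdkn1c and Phlda2 were called towards the maternal allele, where 9.09% of all genes were called, and Igf2 and Kcnq1ot1 towards the paternal allele, where 2.48% were. The median BL6 share of genes on chromosome 1 was 67.9 and 68.2% in BC wt and 52.5 and 52.4% in CB wt. That of chromosome 8 was 66.8 and 67.1% in BC wt and 52.0 and 51.8% in CB wt. Some clones differed from their own wt. Chromosome 8 stood at 51.1% in ΔE1, 51.6% in ΔE3 and 45.4% in ΔP2.1. Chromosome 1 stood at 68.4% in ΔE2.5, 35.3% in ΔE2.7 and 48.7% in ΔP2.1. The part of these chromosomes in the calls over all genes, in wt and in the clones, was not tested.

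H19 was expressed almost wholly from the maternal allele in male wt cells. The share was 96.1% (95.2 to 96.9%) and 95.9% (94.9 to 96.6%) in BC wt and 97.0% (96.2 to 97.7%) and 96.8% (95.9 to 97.5%) in CB wt. The fitted maternal to paternal ratio was 27.5 (4.78 ± 0.06 on the log2 scale, adjusted p by edgeR = 3.00e-171), with the same direction in 4 of 4 libraries.

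Igf2 showed a parental bias on top of a larger share from BL6. In BC wt the maternal BL6 allele gave 57.8% (49.3 to 65.8%) and 58.1% (47.9 to 67.6%) of 135 and 93 SNP fragments. In CB wt the maternal cast allele gave 16.9% (13.3 to 21.1%) and 21.3% (17.3 to 25.9%) of 362 and 348 fragments. BL6 therefore gave the larger share in both crosses, as the mother's allele in BC and as the father's in CB. The fitted parental ratio was 1.76 towards the paternal allele (log2 maternal to paternal ratio -0.82 ± 0.13, adjusted p by edgeR = 4.53e-09). The opposite-strand gene Igf2os overlaps Igf2, and because the kit does not mark strand the fragments of the overlap cannot be assigned to either gene.

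Kcnq1ot1 was expressed from the paternal allele in every male culture. In BC wt 3 of 118 and 5 of 155 SNP fragments were maternal, that is 2.54% (0.868 to 7.21%) and 3.23% (1.39 to 7.33%). In CB wt 0 of 45 and 0 of 26 fragments were maternal, which allows a share of up to 6.67 and 11.5%. The RNA was scarce for its length, with 473 and 567 diploid fragments over 93092 bases in BC wt and 119 and 100 in CB wt, and it overlaps Kcnq1 on the other strand. Kcnq1 itself had 0 to 4 SNP fragments in each culture, all maternal, which is too few for a comparison.

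Cdkn1c and Phlda2, the genes silenced on the paternal chromosome, leaned to the mother to different degrees in the crosses. Cdkn1c had a maternal share of 82.1% (76.7 to 86.5%) and 83.5% (79.1 to 87.2%) in BC wt and of 94.1% (91.0 to 96.1%) and 89.04% (84.9 to 92.1%) in CB wt, with a fitted ratio of 7.32. Phlda2 had 89.2% (87.2 to 90.9%) and 88.4% (86.5 to 90.2%) in BC wt but 65.5% (59.2 to 71.3%) and 71.7% (66.5 to 76.4%) in CB wt, with a fitted ratio of 4.21. For Phlda2 the BL6 allele thus gave a larger part of the RNA as the mother's allele than the cast allele did. Slc22a18, a transporter gene between them, had 4 to 42 SNP fragments in each culture and a maternal share of 66.7 to 100% over the 12 cultures, and it was left out of the test.

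Ascl2, Cd81 and Tssc4 were not called. Ascl2, a transcription factor gene that trophoblast needs, had a maternal share of 56.3 and 52.2% in BC wt and 66.0 and 64.6% in CB wt, and its fitted ratio of 1.49 (adjusted p by edgeR = 0.0116) fell short of 1.5-fold. Tssc4 had 65.1 and 63.1% in BC wt and 43.3 and 45.5% in CB wt, which is a larger BL6 share in both crosses, with a parental ratio of 1.19 (adjusted p by edgeR = 0.00787). The tetraspanin gene Cd81 had 56.3 and 57.6% in BC wt and 44.6 and 44.6% in CB wt, again with more BL6 in both crosses, and its parental ratio was 1.03 (adjusted p by edgeR = 0.383).

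**Figure D2:**
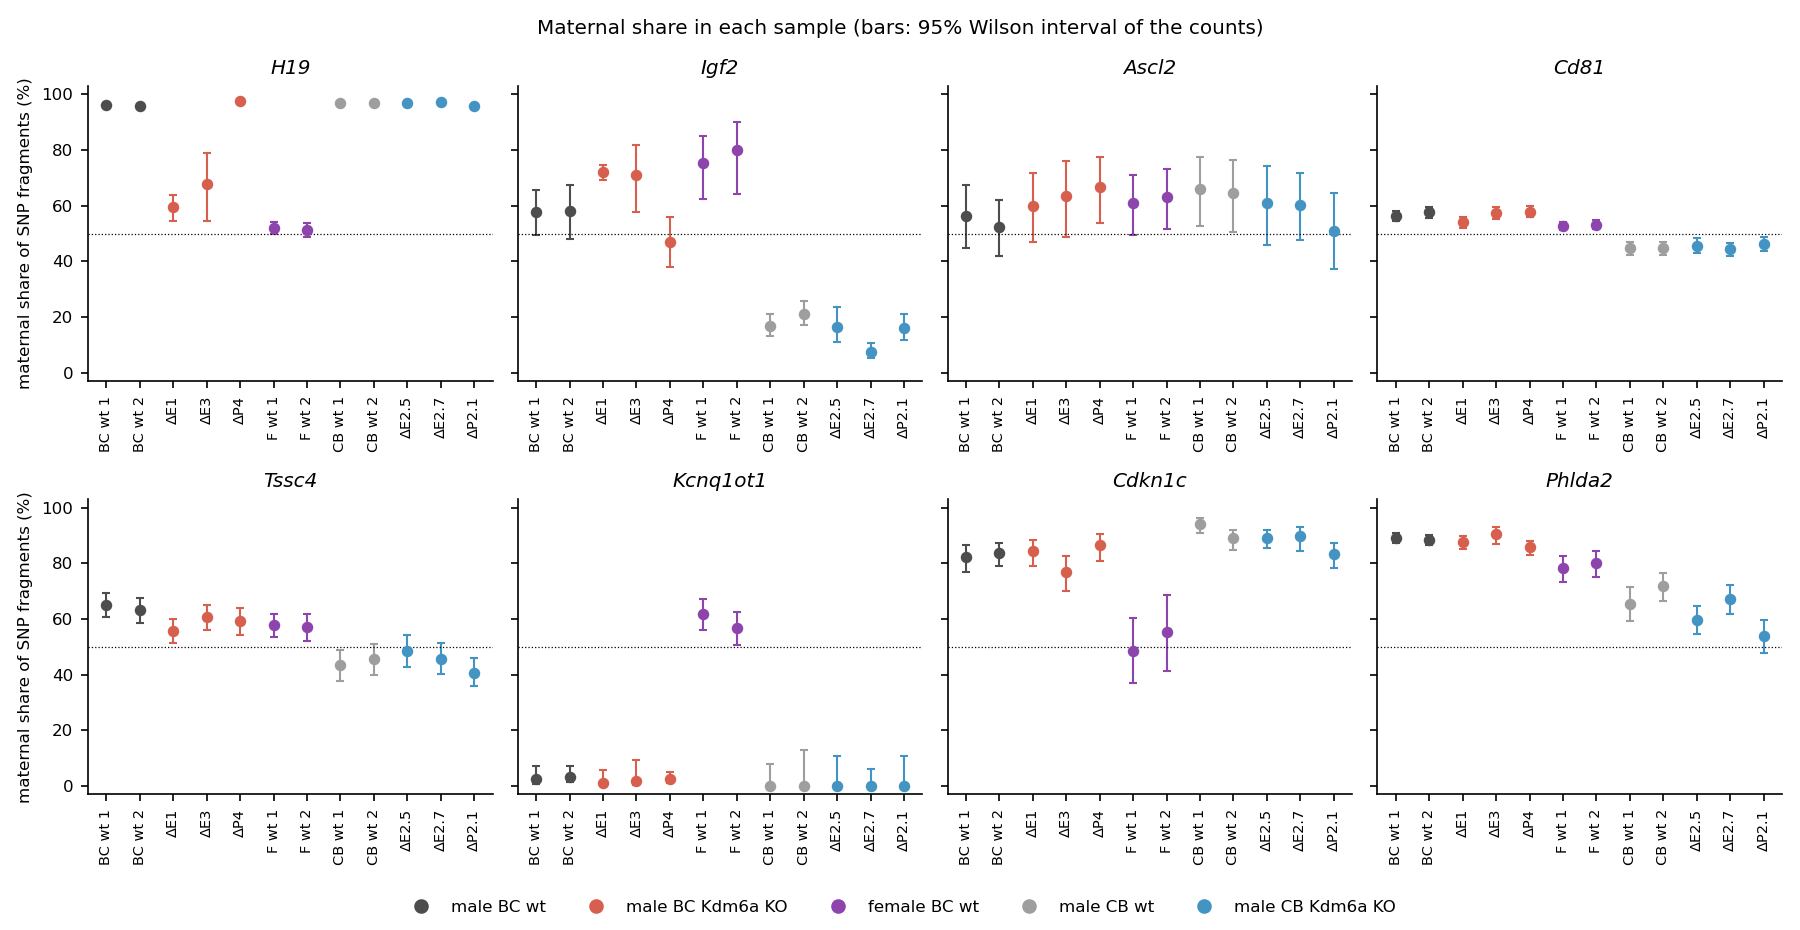
Maternal share of SNP fragments in per cent for the 8 genes with enough fragments, with 1 point for each culture, bars for the Wilson 95% interval of the counts and a dotted line at an equal share. H19 lies above 95% in all male cultures except ΔE1 at 59.4% and ΔE3 at 67.9%, and H19, Cdkn1c and Kcnq1ot1 lie near the dotted line in the female line.

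H19 changed in 3 of the 6 KO clones, and in opposite directions. Its level was 169 and 154 TPM in BC wt, 29.1 in ΔE1, 4.10 in ΔE3 and 191 in ΔP4. It was 271 and 256 TPM in CB wt, 217 in ΔE2.5, 817 in ΔE2.7 and 261 in ΔP2.1. Each clone was compared with the wt replicates of its cross by edgeR, in a fit over all 12 libraries in which a lone clone is assumed to vary like the wt replicates, so these p-values describe a clone and not the genotype. H19 fell by 2.49 ± 0.08 on the log2 scale in ΔE1 (5.61-fold, adjusted p by edgeR = 1.11e-07), where 10.8% of all 14670 genes were called. In ΔE3 it fell by 5.31 ± 0.10 (39.7-fold, adjusted p by edgeR = 2.16e-09), where 19.5% of genes were called, and in ΔE2.7 it rose by 1.71 ± 0.07 (3.28-fold, adjusted p by edgeR = 3.6e-07), where 15.2% were called. Over all genes, the share called higher was 5.73% in ΔE1, 8.94% in ΔE3, 8.88% in ΔP4, 5.81% in ΔE2.5, 6.22% in ΔE2.7 and 3.47% in ΔP2.1, and the share called lower was 5.11, 10.6, 4.72, 10.9, 8.94 and 6.49% in the same order. H19 in ΔP4, ΔE2.5 and ΔP2.1, with log2 differences of 0.15, -0.21 and 0.05, were not called.

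The maternal share of H19 dropped in both clones that lost its RNA. In ΔE1 247 of 416 SNP fragments were maternal, a share of 59.4% (54.6 to 64.0%), and in ΔE3 36 of 53 were, a share of 67.9% (54.5 to 78.9%). In the remaining 4 clones the share was 95.7 to 97.8%. An edgeR test of the allele ratio, added after seeing the data, gave a change in the log2 maternal to paternal ratio of -4.04 ± 0.19 in ΔE1 (4.74% of genes called) and of -3.51 ± 0.50 in ΔE3 (5.29% called). DESeq2 made the same calls for these clones. In ΔP4 the ratio rose by 0.88 ± 0.21 with edgeR (0.517% of genes called) and this call was not made by DESeq2 (adjusted p = 0.139).

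Splitting the level by the share showed what each allele gave. The maternal allele gave 162 and 147 TPM in BC wt, 17.3 in ΔE1, which is 8.96-fold below the wt mean, and 2.78 in ΔE3, which is 55.7-fold below. The paternal allele gave 6.52 and 6.37 TPM in BC wt, 11.8 in ΔE1 and 1.31 in ΔE3. The drop in ΔE1 was thus on the maternal allele, with a higher paternal level, whereas in ΔE3 both alleles were below wt. In ΔE2.7 the gain was maternal, from a wt mean of 255 TPM to 795 TPM.

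The few H19 fragments of ΔE3 came from a culture with another peculiarity. Its embryonic fibroblast markers summed to 17.9 TPM, against 75.7 and 79.5 TPM in BC wt, and 91.8% of the 110 SNP fragments of Acta2 (smooth muscle actin) and 86.0% of the 43 of Col1a1 (collagen) were BL6 there, while the BL6 share of Acta2 was 35.7 to 50.9% in the 11 other cultures. The part of these fragments in the H19 share of ΔE3 was not tested. In ΔE1 the fibroblast sum was 84.7 TPM and the BL6 share of Acta2 was 42.7%. Col1a2, another collagen gene of the same list, did not set ΔE3 apart. Its BL6 share was 95.5% in ΔE3, 91.2% in ΔE1 and 80.4 and 84.4% in BC wt, on 34 to 56 SNP fragments.

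Igf2 moved in 3 clones as well, and not in mirror image to H19. Its level was 12.2 and 8.76 TPM in BC wt, 78.5 in ΔE1, 4.56 in ΔE3 and 12.3 in ΔP4. It was 50.01 and 47.7 TPM in CB wt, 18.99 in ΔE2.5, 56.2 in ΔE2.7 and 34.5 in ΔP2.1. ΔE1 thus exceeded every other culture while its sister clone ΔE3 was below wt.

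By edgeR Igf2 rose by 2.89 ± 0.13 on the log2 scale in ΔE1 (7.41-fold, adjusted p = 1.52e-06). It fell by 1.21 ± 0.16 in ΔE3 (2.31-fold, adjusted p by edgeR = 0.000225) and by 1.30 ± 0.15 in ΔE2.5 (2.46-fold, adjusted p by edgeR = 9.3e-05), where 16.7% of genes were called. The overlapping Igf2os rose with it in ΔE1, by 4.94-fold.

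In ΔE1 Igf2 gained RNA from both alleles. The maternal allele gave 56.5 TPM, 9.33-fold above the wt mean of 6.06, and the paternal allele gave 22.0 TPM, 4.98-fold above the wt mean of 4.41. The maternal share was 72.0% (69.1 to 74.8%) of 954 SNP fragments, and its change in the log2 ratio of 0.90 ± 0.23 was called by edgeR but not by DESeq2 (adjusted p = 0.179). A similar share was seen in ΔE3, where Igf2 fell, at 71.2% (57.7 to 81.7%) of 52 SNP fragments, with an interval that overlapped those of BC wt. In ΔE2.7, which had the most H19, the maternal share of Igf2 was 7.59% (5.34 to 10.7%) against 16.9 and 21.3% in CB wt, a change in the log2 ratio of -1.51 ± 0.29 (adjusted p by edgeR = 0.000198, 4.28% of genes called). In ΔE2.5 the paternal allele gave 15.9 TPM against 41.6 and 37.6 TPM in wt, and the share of 16.4% (11.1 to 23.6%) overlapped that of wt. The test of the allele ratio called 0 of 9 members in ΔE2.5 (4.4% of genes called), with 1 at an unadjusted p under 0.05 and 0 called by DESeq2.

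**Figure D3:**
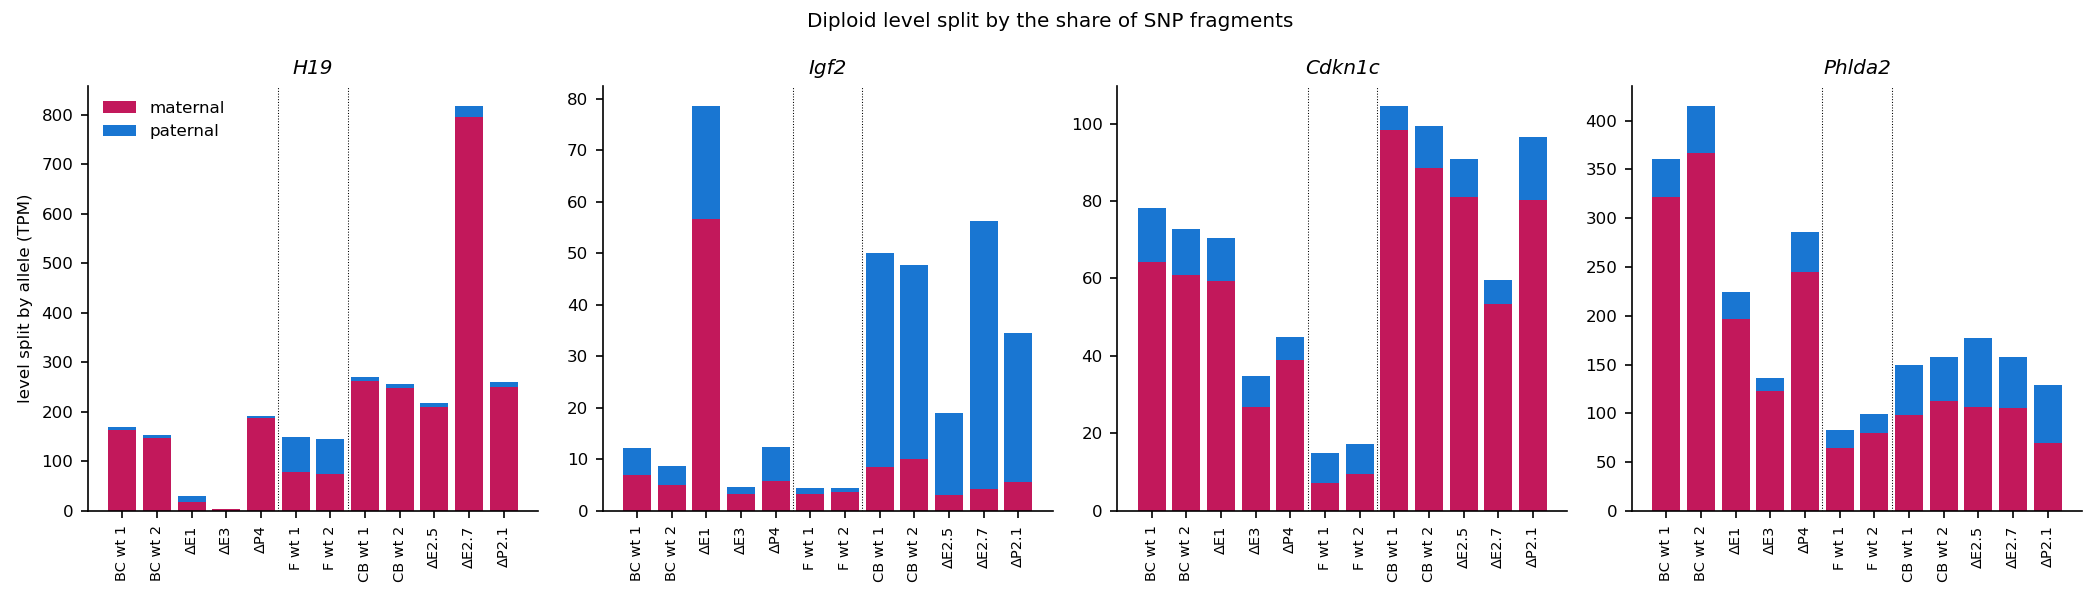
Diploid level in TPM of H19, Igf2, Cdkn1c and Phlda2 in each culture, split by the share of SNP fragments into a maternal and a paternal part, with bars that start at 0 and dotted lines around the female line. H19 in ΔE2.7 is almost wholly maternal at 795 TPM, and Igf2 in ΔE1 has 56.5 TPM from the maternal and 22.0 TPM from the paternal allele.

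In the Kcnq1 domain every coding gene that edgeR called in a clone had fallen. Phlda2 was at 361 and 415 TPM in BC wt, 224 in ΔE1, 136 in ΔE3 and 286 in ΔP4, so that every BC clone was below wt. In CB it was at 150 and 157 TPM in wt, 178 in ΔE2.5, 157 in ΔE2.7 and 129 in ΔP2.1. Phlda2 was called in no CB clone. It fell by 0.81 ± 0.12 on the log2 scale in ΔE1 (1.75-fold, adjusted p by edgeR = 0.000812) and by 1.52 ± 0.12 in ΔE3 (2.88-fold, adjusted p by edgeR = 1.11e-05). In ΔP4 the log2 difference of -0.53 ± 0.12 was under 1.5-fold.

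Cdkn1c was at 78.2 and 72.8 TPM in BC wt, 70.5 in ΔE1, 34.9 in ΔE3 and 44.9 in ΔP4, and at 104 and 99.4 TPM in CB wt, 90.9 in ΔE2.5, 59.7 in ΔE2.7 and 96.5 in ΔP2.1. It fell 2.18-fold in ΔE3, 1.79-fold in ΔP4, where 13.6% of genes were called, and 1.62-fold in ΔE2.7. ΔE1, which had lost H19, kept Cdkn1c within 1.08-fold of wt. Ascl2 was at 18.6 and 19.4 TPM in BC wt, 16.2 in ΔE1, 9.30 in ΔE3 and 11.8 in ΔP4, and fell 2.06-fold in ΔE3 and 1.72-fold in ΔP4. In CB it was at 19.5 and 18.7 TPM in wt, 14.5 in ΔE2.5, 18.7 in ΔE2.7 and 19.4 in ΔP2.1. Ascl2 was called in no CB clone.

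Both alleles of Phlda2 and Cdkn1c were lower in ΔE3. The maternal and paternal parts of Phlda2 were 123 and 13.1 TPM there, against wt means of 344 and 43.5 TPM, and its maternal share of 90.4% (87.0 to 93.0%) overlapped that of wt. The share of Cdkn1c was 76.9% (70.0 to 82.6%). In ΔP2.1 edgeR and DESeq2 called none of the 8 genes tested in level (9.96% of all genes called by edgeR), the nearest being Igf2 at 1.36-fold lower and Tssc4 at 1.19-fold higher (adjusted p by edgeR = 0.0366 and 0.0445, both under 1.5-fold). This clone had a lower maternal share of Phlda2 at 53.8% (47.6 to 59.8%) and of Cdkn1c at 83.3% (78.3 to 87.3%). The change in the log2 ratio was -0.94 ± 0.23 for Phlda2 and -1.15 ± 0.33 for Cdkn1c (adjusted p by edgeR = 0.0025 and 0.0127, 10.3% of genes called), and DESeq2 made the call for Phlda2 but not for Cdkn1c (adjusted p = 0.27).

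Kcnq1ot1 could be tested only with a filter of 10 fragments in place of 1 TPM, chosen after seeing the data. It had 473 and 567 fragments in BC wt, 353 in ΔE1, 221 in ΔE3 and 1101 in ΔP4, and 119 and 100 in CB wt, 104 in ΔE2.5, 211 in ΔE2.7 and 87 in ΔP2.1. edgeR called a fall of 0.65 ± 0.15 on the log2 scale in ΔE1 and of 1.24 ± 0.16 in ΔE3, and a rise of 1.00 ± 0.13 in ΔP4 and of 1.00 ± 0.18 in ΔE2.7, with 11, 19.9, 14.3 and 15.5% of all genes called. It was not called in ΔE2.5 or ΔP2.1 (16.8 and 10.1% of genes called), nor between KO and wt as groups in BC (log2 difference 0.03 ± 0.59, 0.0253% of genes called) or CB (0.34 ± 0.43, 0% called). The RNA stayed paternal in every clone, with 1 to 7 maternal of 57 to 280 SNP fragments in the BC clones and 0 maternal of 32 to 59 in the CB clones. Beside these calls, Cdkn1c was called lower in ΔP4, ΔE2.7 and ΔE3 and was not called in ΔE1 (log2 difference -0.12 ± 0.08).

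Cd81, Tssc4 and Slc22a18 were called in no clone. Over the 6 clones the log2 differences ran from -0.47 to 0.06 for Cd81, from -0.36 to 0.25 for Tssc4 and from -0.36 to 0.53 for Slc22a18. The maternal share of Tssc4 was 55.7% in ΔE1 against 65.1 and 63.1% in BC wt, with intervals that did not overlap for replicate 1, and the change was not called (adjusted p by edgeR = 0.07).

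**Figure D4:**
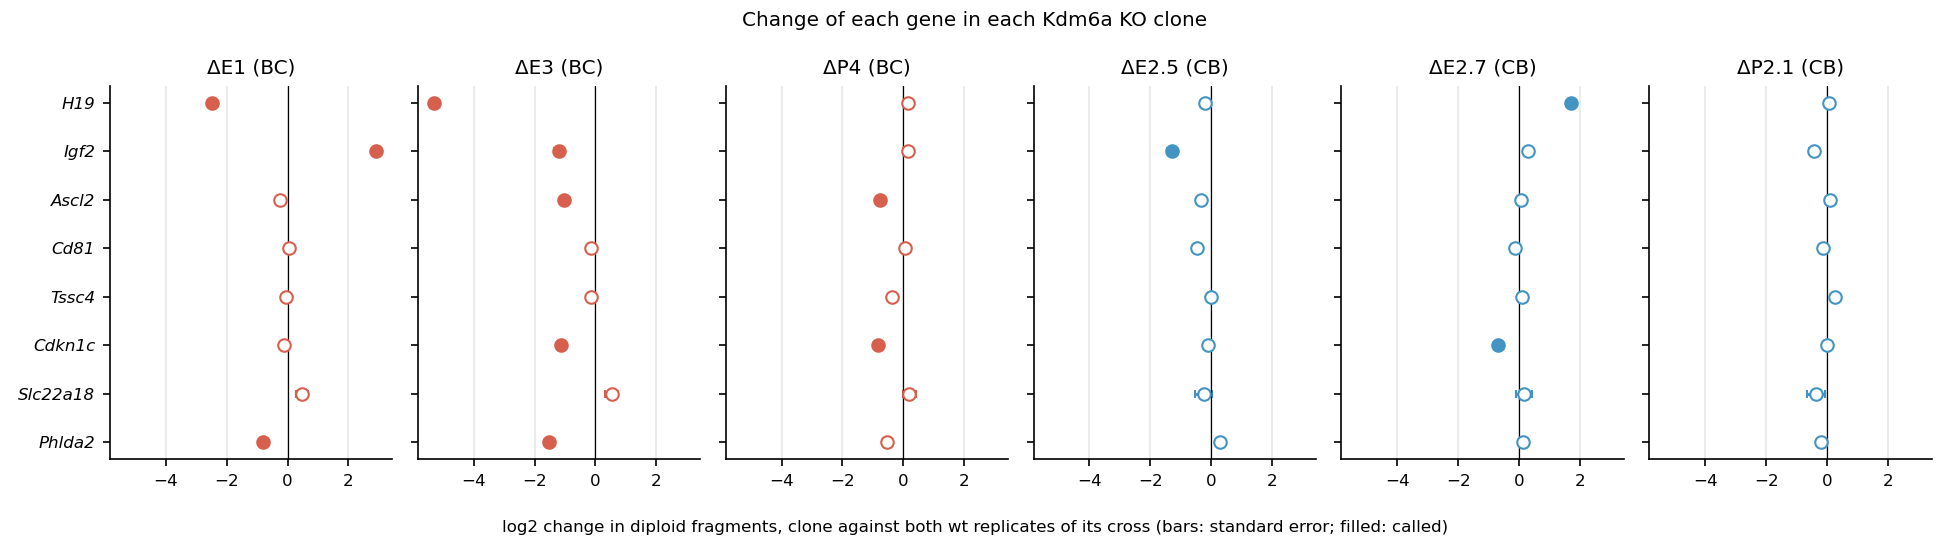
Log2 change in diploid fragments of the 8 genes tested in each KO clone against both wt replicates of its cross, with bars for the standard error and filled points for genes called by edgeR at FDR under 0.05 and at least 1.5-fold. H19 falls by 2.49 in ΔE1 and by 5.31 in ΔE3 and rises by 1.71 in ΔE2.7, and no point is filled in ΔP2.1.

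With the clones taken as a group, none of the 8 genes tested passed the test of KO against wt. edgeR called 0 of them in BC, where 4 of 13804 genes (0.029%) were called, and 0 in CB, where 0 of 13801 genes (0%) were. At an unadjusted p under 0.05 there were 2 of the 8 in BC and 0 in CB, and 1525 and 2834 of all genes, and DESeq2 also called 0 of the 8 in each cross. The log2 difference of H19 was -1.20 ± 1.15 in BC (adjusted p by edgeR = 0.739) and 0.80 ± 0.61 in CB (adjusted p by edgeR = 0.481), with standard errors that carry the spread between clones. For Igf2 it was 1.58 ± 1.07 in BC and -0.34 ± 0.43 in CB, and the BC value turned to -0.38 without ΔE1.

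Phlda2, Cdkn1c and Ascl2 were lower, and Slc22a18 higher, in all 3 BC clones than in both wt replicates, and none of these passed the test. The log2 differences were -0.90 ± 0.26 for Phlda2, -0.63 ± 0.28 for Cdkn1c, -0.66 ± 0.25 for Ascl2 and 0.41 ± 0.26 for Slc22a18 (adjusted p by edgeR = 0.353, 0.459, 0.410 and 0.596). The difference between the crosses in the effect of KO was called for 0 of the 8, beside 9 of 14297 genes (0.063%), 1 of the 8 having an unadjusted p under 0.05, and DESeq2 called 0 of them. The change in allele ratio with KO was called for 0 of 9 in BC (0.0162% of genes) and 0 of 8 in CB (0%), with 1 and 0 of them at an unadjusted p under 0.05. Without ΔP4, the BC test called 533 genes, among them H19 at -3.96 ± 0.18 and Igf2 at 0.90 ± 0.21 on the log2 scale. The KO group then held only ΔE1 and ΔE3, which arose from the same editing event and are not independent. Their median BL6 share on chromosome 8 was 51.1 and 51.6%, against 66.8 and 67.1% in BC wt. The part of that chromosome in these calls was not tested. Tested allele by allele, 0 of the 8 genes with enough maternal fragments were called in BC (0.0324% of genes) and 0 of 7 in CB (0%), and on the paternal allele 0 of 8 were in each cross (0% of genes). Between 1 and 2 of them had an unadjusted p under 0.05 in each of these tests, and DESeq2 called 0.

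The female line differed from the male BC line in both the levels and the allele shares of the domains. H19 gave 149 and 146 TPM in the female, close to the 169 and 154 TPM of the male (log2 difference -0.18 ± 0.07, under 1.5-fold), but from both alleles alike. The maternal share was 52.1% (49.9 to 54.2%) and 51.4% (48.9 to 53.8%) of 2128 and 1586 SNP fragments. The maternal allele gave 77.7 and 75.0 TPM against a male mean of 155, and the paternal allele gave 71.6 and 70.9 TPM, 11.1- and 11.0-fold above the male mean of 6.45. The RNA that the maternal allele lacked was thus nearly made up by the paternal allele.

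Kcnq1ot1 and Cdkn1c were also near an equal share in the female. The maternal share of Kcnq1ot1 was 61.7% (56.0 to 67.1%) and 56.8% (50.8 to 62.6%), where the male had 2.54 and 3.23%, and with the filter of 10 fragments its RNA was 2.16-fold higher (adjusted p by edgeR = 5.19e-06, 46.4% of genes called). The share of Cdkn1c was 48.5% (37.1 to 60.2%) and 55.3% (41.2 to 68.6%) of 68 and 47 fragments. Cdkn1c fell from 78.2 and 72.8 TPM in the male to 15.0 and 17.1 TPM, and the loss lay mainly on the maternal allele, which gave 7.27 and 9.48 TPM against a male mean of 62.5, while the paternal allele gave 7.71 and 7.66 TPM against 12.98.

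Phlda2 fell as strongly and kept a maternal lean. Its level was 82.6 and 99.3 TPM in the female, and its maternal share was 78.4% (73.2 to 82.8%) and 80.1% (75.0 to 84.5%) against 89.2 and 88.4% in the male. The maternal part was 64.7 and 79.6 TPM against a male mean of 344, and the paternal part was 17.9 and 19.7 TPM against 43.5. Igf2, at 4.36 and 4.51 TPM, had 40 maternal of 53 SNP fragments (75.5%, 62.4 to 85.1%) and 28 maternal of 35 (64.1 to 89.96%).

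Of the 8 genes tested between the sexes, 5 were called by edgeR, beside 44.5% of all 14049 genes, so that a call in this comparison is common. Cdkn1c fell 4.90-fold, Phlda2 4.44-fold and Igf2 2.45-fold (adjusted p by edgeR = 3.88e-09, 2.26e-08 and 5.13e-06), where 19.9% of genes were lower. Cd81 rose 1.75-fold, from 273 and 244 to 490 and 453 TPM, and Slc22a18 rose 1.92-fold, from 2.69 and 3.26 to 5.40 and 6.57 TPM (adjusted p by edgeR = 2.38e-06 and 0.000239), where 24.5% of genes were higher. Ascl2 and Tssc4 were not called.

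The shares of 5 of 9 genes were called between female and male by the added test, beside 36.1% of all genes. The change in the log2 maternal to paternal ratio from male to female was -4.48 ± 0.10 for H19, -2.202 ± 0.33 for Cdkn1c and -1.06 ± 0.19 for Phlda2, and 5.54 ± 0.33 for Kcnq1ot1 and 1.29 ± 0.39 for Igf2. The last 2 genes rose where 2.65% of genes did. The whole female line had a lower BL6 share than the male, with 33.4% of genes called lower, and its autosomal BL6 to cast ratio was 0.837 and 0.835 against 1.24 and 1.24 in the male. Over the 34 other genes of distal chromosome 7 the median BL6 share was 50.1 and 50.9% in the female and 52.7 and 51.3% in the male. The female line is a separate line as well as another sex, and these cannot be told apart. Its ES cell markers summed to 14823 and 16059 TPM against 6302 and 7403 TPM in the male, and the part of this in the levels was not tested.

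Between the male wt lines, BC and CB differed in 4 of the 8 genes, beside 34.5% of all 13827 genes called (14.7% higher and 19.8% lower in BC). Igf2 was 4.46-fold, Cd81 1.67-fold and H19 1.56-fold lower in BC than in CB, and Phlda2 was 2.65-fold higher (adjusted p by edgeR = 2.06e-05, 5.04e-05, 9.04e-05 and 1.61e-05). H19 dropped under 1.5-fold without BC wt replicate 2, with a log2 difference of -0.58. Kcnq1ot1 was 3.03-fold higher in BC with the filter of 10 fragments (36.1% of genes called).

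These lines also differed in markers of other cell types. The 9 fibroblast markers summed to 75.7 and 79.5 TPM in BC wt and to 768 and 783 TPM in CB wt, most of it Acta2. The 8 trophoblast markers summed to 173 and 181 TPM in BC wt and to 1743 and 1754 TPM in CB wt. Most of the trophoblast sum came from the keratin genes Krt8 and Krt18. In CB wt Krt8 stood at 527 and 530 TPM and Krt18 at 1120 and 1128 TPM. Trophoblast and fibroblasts also express imprinted genes, and the part of such cells in the levels of Igf2, H19 and Phlda2 was not tested. Among the CB clones the fibroblast sum was 74.7 TPM in ΔE2.5, 299.8 in ΔE2.7 and 1097 in ΔP2.1, and the trophoblast sum was 527, 1049 and 1233 TPM. In ΔE1 the trophoblast sum was 351 TPM and in ΔE3 81.3 TPM.

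Of 19 neighbouring genes on distal chromosome 7, 14 were tested in the clones. In ΔE1 3 were called, all higher (Tnnt3, Tnni2 and Igf2os), beside 10.8% of all genes, and in ΔE3 5 were called, 2 higher (Tspan32 and Cars) and 3 lower (Lsp1, Tnfrsf22 and Tnfrsf23), beside 19.5%. In ΔE2.5 4 were lower (Lsp1, Tnni2, Osbpl5 and Tnfrsf23) and 0 higher, beside 16.7% of all genes in either direction. There were 1 higher and 1 lower in ΔP4, 2 higher and 1 lower in ΔE2.7, and 1 higher in ΔP2.1. Over all genes, 13.6, 15.2 and 9.96% were called in either direction in these clones. The median log2 difference of the neighbouring genes was 0.31 in ΔE1, -0.51 in ΔE3 and -0.25 in ΔE2.5, beside 0.0029 and -0.00090 over all genes tested in ΔE1 and ΔE3. Nap1l4, just beyond Phlda2, had a maternal share of 48.0 to 53.5% over the 12 cultures.

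Of 20 genes that set or read imprints, a list that includes the deleted Kdm6a, 3 were called in ΔE1, 5 in ΔE3, 4 in ΔP4, 2 in ΔE2.5, 5 in ΔE2.7 and 3 in ΔP2.1, Kdm6a among them each time, beside 10.8, 19.5, 13.6, 16.7, 15.2 and 9.96% of all genes. The de novo DNA methyltransferase gene Dnmt3a fell 1.82-fold in ΔE1, 2.17-fold in ΔE3, 2.19-fold in ΔP4 and 1.57-fold in ΔE2.7, and was not called in ΔE2.5 or ΔP2.1. Zfp57, whose product protects methylated imprints, rose 2.23-fold in ΔE3 and fell 1.56-fold in ΔE2.5. Between female and male, 3 of the 20 were called higher in the female (Ctcfl, Zfp57 and Tet2), beside 24.5% of all genes. Another 4 were called lower (Ctcf, Dnmt3a, Dnmt3b and Rnf2), beside 19.9% of all genes. Among these calls Dnmt3b was 3.48-fold and Dnmt3a 2.28-fold lower and Zfp57 2.25-fold higher than in the male.

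Of 14 genes that act in the response to IGF2, 13 were tested in the clones. In ΔE3 7 were lower, beside 10.6% of all genes (the receptors Igf2r and Insr, the adaptor Irs2, the RNA-binding protein gene Igf2bp3 and the IGF-binding protein genes Igfbp3, Igfbp4 and Igfbp5), and Grb10 was higher, with a median log2 difference of -0.72. In ΔE1, where Igf2 rose, 0 were higher and 2 were lower (Insr and Igf2bp3), beside 5.11% of all genes lower, with a median of -0.12. In ΔE2.5, where Igf2 fell, 5 were lower (Igf1r, Igf2r, Irs1, Irs2 and Grb10), beside 10.9% of all genes, with a median of -0.45. There were 2 higher and 0 lower in ΔP4, 2 higher and 1 lower in ΔE2.7, and 1 higher and 3 lower in ΔP2.1. Over all genes, 13.6, 15.2 and 9.96% were called in either direction in these clones.

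Imprinted genes elsewhere in the genome set these shares in context. In a list of paternally expressed genes, 7 of the 11 with enough fragments came to at least 80% from the paternal allele in each BC wt replicate, 7 in ΔE1, 7 in ΔE3 and 8 in ΔP4, but 0 and 1 of 11 in the female replicates. The 11 include Zim1, which is known as maternally expressed and had a paternal share of 23.9 and 27.3% in BC wt. In CB it was 7 and 6 of 11 in wt, 6 of 10 in ΔE2.5, 5 of 10 in ΔE2.7 and 7 of 11 in ΔP2.1. Single genes moved in clones of both crosses. In BC, Plagl1 had a paternal share of 54.5 and 60.0% in wt, 76.5% in ΔE1, 75.0% in ΔE3 and 89.4% in ΔP4. Snrpn stayed close to wt, at 96.8 and 98.1% in wt and 96.0, 96.6 and 97.3% in the same clones. In CB, Zrsr1 had a paternal share of 88.7 and 79.1% in wt, 46.7% in ΔE2.5 and 49.1% in ΔE2.7. Grb10 had a maternal share of 81.04 and 79.5% in CB wt, 44.7% in ΔE2.5 and 36.2% in ΔP2.1. These genes were chosen after their values were seen, and their shares were not tested. The maternally expressed RNAs Meg3, Rian and Mirg of the Dlk1-Dio3 domain fell in all 3 BC clones, by 30.2- to 79.5-fold for Meg3, 47.8- to 75.1-fold for Rian and 43.0- to 86.9-fold for Mirg, including ΔP4, where H19 was not called.

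The 8 members above 1 TPM did not vary as a block over the 12 cultures, and Kcnq1 and Kcnq1ot1 were left out of this comparison. The Pearson correlation of log2(TPM + 1) ran from -0.88 between Cdkn1c and Slc22a18 to 0.74 between Igf2 and Cdkn1c. It was 0.36 between H19 and Igf2, 0.27 between H19 and Cdkn1c, 0.66 between Ascl2 and Cd81, and 0.63 between H19 and Ascl2. These values share libraries and include the differences between lines. The gene most like each of the 8 members lay on another chromosome, and how often this holds for other genes was not tested. Among them were Tmem63a for H19 (r = 0.95), Syne1 for Igf2 (0.94), Tmem54 for Cdkn1c (0.99) and Amph for Cd81 (0.99). Of the 3 genes most like Slc22a18, Immp2l (0.97) lay on chromosome 12, and Bloc1s3 and Mtg1 (both 0.97) lay on chromosome 7. The 3 genes most like Phlda2, namely Ddx39, Nip7 and Klhdc4 (0.97, 0.96 and 0.96), all lay on chromosome 8.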

How the data were processed

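Polyadenylated RNA of 12 cultures was sequenced on a NextSeq as 75-base single-end reads with a TruSeq RNA V2 kit, which does not mark strand. The deposited expected counts were made by the authors, who aligned the reads with Bowtie2 2.2.5 to the BL6 genome (mm10) and to a cast genome carrying cast SNPs, and assigned fragments to BL6, cast or either genome by SNPs. Per-gene fragments were rounded to whole numbers here. TPM were computed from fragments of either genome and the longest GENCODE vM21 transcript, with a median length of 2284 bases for the 1036 genes without annotation.

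Genes above 1 TPM in at least 1 library compared (allelic tests, a mean of 10 fragments) were tested by the quasi-likelihood test of edgeR 4.0.16 with TMM scaling in R 4.3.3, with p-values adjusted over all genes tested by the Benjamini-Hochberg method. DESeq2 1.42.0 was the alternative. In BC, 3 X-linked genes in the off-target deletion of ΔE1 and ΔE3 (Map3k15, Pdha1 and Sh3kbp1) were not tested. The tests were checked on simulated data. Depth was 49975599 to 89070402 fragments, and shares carry Wilson 95% intervals, with 3 counts as the limit where a count was 0. Division of the share by the autosomal BL6 to cast ratio had been planned, but whole chromosomes moved that ratio, so the share is given unadjusted and the division is an alternative. That choice, the tests of the maternal share in each clone and in the female line, and the filter of 10 fragments for Kcnq1ot1 were made after seeing the data. The members and gene lists were chosen with earlier results of these data known. All 10 members are named, and for likeness the 3 genes with the highest correlation over 12 libraries were taken. Wt replicates are separate cultures of a line, so p-values do not cover spread between lines. Replicates of a group differed by more than sampling noise (chi-square per degree of freedom of 18.5 to 38.4). No genome sequence was used here.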

Additional observations from a re-analysis of the deposited data

Results flagged for a closer look

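The maternal share of Ascl2 lay on opposite sides of wt in the clones of the crosses. It was 56.3 and 52.2% in BC wt and 60.0, 63.6 and 66.7% in ΔE1, ΔE3 and ΔP4, and it was 66.0 and 64.6% in CB wt and 61.0, 60.3 and 51.1% in ΔE2.5, ΔE2.7 and ΔP2.1. All BC clones were above their wt and all CB clones below theirs. The maternal allele is BL6 in BC and cast in CB, so in both crosses every clone had a larger BL6 share than its wt. The change of the mean maternal share was 17.0 percentage points more in BC than in CB. This difference between the crosses was not tested, and each share rests on 41 to 92 SNP fragments. The Wilson interval of every clone overlapped those of both wt replicates of its cross. Within each cross, the change in allele ratio with KO was not called for Ascl2.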

How the results depend on the processing

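The calls of the 8 genes in each clone were the same with RLE scaling, with DESeq2 and with a filter of 10 fragments. Counts over all genes moved more. With DESeq2, KO against wt called 260 genes in BC and 501 in CB, the difference between crosses 554, ΔE1 1040, ΔP4 1288 and ΔP2.1 971. On the alleles DESeq2 called 49 maternal and 35 paternal in BC, 117 and 129 in CB, and 4 and 2 for the change in allele ratio. One fit over all 12 libraries called 58 genes in BC and 54 in CB. Of the maternal share calls DESeq2 made 4 in place of 7, with 1 in ΔE1, 0 in ΔP4 and 1 in ΔP2.1, and 21 genes in ΔP4.

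Leaving out 1 library at a time, the count was 1 to 4 in BC, lowest without ΔE1, 0 to 928 in CB, highest without ΔP2.1, and 3 to 306 for the difference between crosses, highest without ΔP2.1 and 88 without ΔP4. It was 2 to 263 for the maternal and 0 to 7 for the paternal allele in BC, both highest without ΔP4, 0 to 74 and 0 to 96 in CB, both highest without ΔP2.1, and 0 to 533 for the allele ratio in BC, with 0 to 2 of the members, highest without ΔP4. Without ΔP4 the BC clones left were ΔE1 and ΔE3, which arose from the same editing event. The log2 change with KO ran from -0.38 (without ΔE1) to 2.09 for Igf2 in BC, and reached -0.076 for H19 in CB without ΔE2.7 and -0.022 for Phlda2 in CB without ΔE2.5. Without ΔE1 the difference between crosses was -0.030 for Igf2 (2.44 without ΔE3), and the change in allele ratio in BC was 0.26 for H19 (-3.96 without ΔP4) and -0.13 for Igf2 (0.90 without ΔP4). Without ΔP2.1 the change in allele ratio in CB was 0.12 for H19. Parent of origin called 5 to 6 members, Ascl2 being the sixth without BC wt replicate 2. The cause was not tested.

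Dividing the share by the autosomal ratio moved it by -5.45 to 5.80 percentage points in males and 2.69 to 4.49 in the female, and dividing by the distal chromosome 7 ratio moved it by -2.67 to 1.69 and -0.912 to -0.0456. The replicate numbers did not pair the wt libraries (correlations of 0.18, 0.17 and 0.0099), and with the replicate block 5 of 8 members were called between female and male and 4 of 8 between BC and CB wt, as without it. Depth limits Kcnq1, Slc22a18 and the alleles of Igf2 in the female, which rest on 0 to 53 SNP fragments.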
